A study of Homo sapiens with 8 samples.

Results

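The 10 genes described here encode apolipoproteins (APOA1, APOA2, APOB, APOC1, APOC3, APOE, APOH and APOM) and a pair of proteins that load lipid onto lipoproteins (MTTP and TM6SF2). They were taken by symbol from the 86369 gene rows of the deposited count table. All 10 had a row, and 7 of them held enough counts to be tested, whereas APOB, APOE and APOM were near zero and could not be judged. The cells were HepG2, an established hepatocellular carcinoma line, grown in serum-containing medium and transfected by lipofection with a short interfering RNA (siRNA). One group of 4 libraries (siNAT10) received siRNA against NAT10, an RNA cytidine acetyltransferase, and the other group of 4 (siCtrl) received a negative control siRNA. RNA was collected 2 days after transfection in both groups. Replicates 1 and 2 of each group are labelled batch 1 and replicates 3 and 4 batch 2. All cells were transfected and no untreated library is in the design. The labels name no siRNA sequence and do not say whether the libraries came from separate cultures, so that p-values measure only the spread between these libraries, which may be technical. The kit reads the 3' end of polyadenylated RNA and yields 1 tag per transcript, so that no correction for length is made between genes. The labels do not record how tags with several alignments or several genes were counted. Levels set side by side between genes are therefore levels of counted tags only.

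Hepatocytes secrete triglyceride-rich particles built around apoB. MTTP moves lipid onto apoB as it enters the endoplasmic reticulum, TM6SF2 acts on the loading of further lipid, and smaller apolipoproteins (apoE, apoC-I, apoC-III) exchange between the particles in plasma. High-density lipoprotein (HDL) forms separately around apoA-I, with apoA-II as the next most abundant protein and apoM as a minor one. HepG2 cells are known for secreting apoB, apoE and apoA-I, and have long served as a model of lipoprotein secretion.

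The promoter windows of the members that differed between the groups, APOA2 and MTTP, are shown to let their sequences be compared, with that of APOH, the member whose pattern over the libraries was nearest to APOA2. RefSeq (GRCh38.p14) gave windows of 250 bases before to 50 bases after a transcript start for 7 of the 10 members, 10 windows in all. APOA1, APOB and APOC3 had no entry. Sequences are 5' to 3' on the gene's strand, and capitals mark matches, on either strand, to 3 motifs: the core of an HNF4 site (CAAAGT), a C/EBP site (ATTGCNNAA) and the TATA box (TATAAA). The windows lie at chr1:161223579-161223878 (APOA2, minus strand), chr4:99563880-99564179 and chr4:99574574-99574873 (MTTP, plus strand, upstream and downstream start) and chr17:66229366-66229665 (APOH, minus strand).
APOA2: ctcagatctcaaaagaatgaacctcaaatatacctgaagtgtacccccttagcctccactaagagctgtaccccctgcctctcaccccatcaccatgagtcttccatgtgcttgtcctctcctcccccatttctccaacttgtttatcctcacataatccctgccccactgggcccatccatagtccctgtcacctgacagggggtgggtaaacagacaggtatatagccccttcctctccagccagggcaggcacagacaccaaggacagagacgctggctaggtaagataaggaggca
MTTP upstream start: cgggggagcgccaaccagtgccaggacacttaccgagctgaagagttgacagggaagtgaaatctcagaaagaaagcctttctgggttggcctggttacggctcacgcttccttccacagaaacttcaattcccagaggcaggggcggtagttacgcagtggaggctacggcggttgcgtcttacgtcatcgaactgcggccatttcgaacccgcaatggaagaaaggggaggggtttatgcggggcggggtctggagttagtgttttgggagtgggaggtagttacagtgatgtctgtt
MTTP downstream start: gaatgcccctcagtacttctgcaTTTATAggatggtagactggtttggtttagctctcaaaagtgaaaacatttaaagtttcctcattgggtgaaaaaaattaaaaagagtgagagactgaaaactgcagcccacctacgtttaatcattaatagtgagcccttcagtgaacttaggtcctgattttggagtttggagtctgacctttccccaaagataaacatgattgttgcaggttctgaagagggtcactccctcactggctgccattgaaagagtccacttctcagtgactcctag
APOH: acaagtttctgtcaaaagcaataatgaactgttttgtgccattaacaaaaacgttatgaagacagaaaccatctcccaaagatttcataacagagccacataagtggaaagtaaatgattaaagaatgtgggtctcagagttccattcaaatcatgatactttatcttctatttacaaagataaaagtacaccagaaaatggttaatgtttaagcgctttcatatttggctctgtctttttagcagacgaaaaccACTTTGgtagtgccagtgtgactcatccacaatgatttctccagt

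The APOA2 window and the upstream MTTP window held none of the 3 motifs. The downstream MTTP window held 1 TATA match, on the other strand from position 24 of the window. The APOH window held 1 HNF4 match, on the other strand from position 256, which overlapped no other motif. Over the 10 member windows, the HNF4 and TATA motifs each had a match in 1 window and the C/EBP motif in 0. Of all 35116 RefSeq windows of this length, 11.9% held the HNF4 motif, 2.31% the C/EBP motif and 11.5% the TATA motif. Exact letters of this kind are a description of the windows only. The 3' tags do not show which of the MTTP starts was used.

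APOB, APOE and APOM stood near zero in every library. APOB (ENSG00000084674, GRCh38 chromosome 2, 21001429 to 21044073), the structural protein of very-low-density lipoprotein, had 7 counts in siCtrl replicate 3 and 0 in the other 7 libraries. APOE (ENSG00000130203, chromosome 19, 44905791 to 44909393), a ligand of the LDL receptor, had 0, 3, 1 and 1 counts in siCtrl replicates 1 to 4 and 3, 6, 0 and 3 in siNAT10 replicates 1 to 4. APOM (ENSG00000204444, chromosome 6, 31652416 to 31658210), which carries sphingosine-1-phosphate on HDL, had 0 counts in all 8. A count of 0 allows up to 3 counts, which is 0.104 to 0.293 counts per 1000000 of the scaled library size (CPM), depending on the library. That limit covers counting error only. No fold change is given for these genes. The rows go against what is known of apoB and apoE secretion by this line. The values are those of the count table, and whether they reflect the cells' transcripts was not tested.

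What surrounds the 3' end of these genes was looked up in GENCODE 44 and the reference genome, since the tags come from there. The last 100 bases of the APOM transcript were found, at 99% identity or more over at least 90% of their length, in 6 of the 261 alternate contigs of the genome. Whether the submitters' alignment included those contigs was not tested. The APOE 3' end lies within another annotated gene on the same strand (ENSG00000280087, 99 counts in all 8 libraries). APOB had neither feature. Of 844 protein-coding genes whose 3' end recurs in an alternate contig, 49 (5.81%) passed the low-count filter and 79.6% had 0 counts in all libraries. Of 2391 genes with a same-strand gene over the 3' end and no such copy, 931 (38.9%) passed, and of the 16779 with neither, 9921 (59.1%) passed. The labels do not record how reads with several alignments or several genes were counted, and the part of these features in the 3 near-zero rows was not tested.

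**Figure D1:**
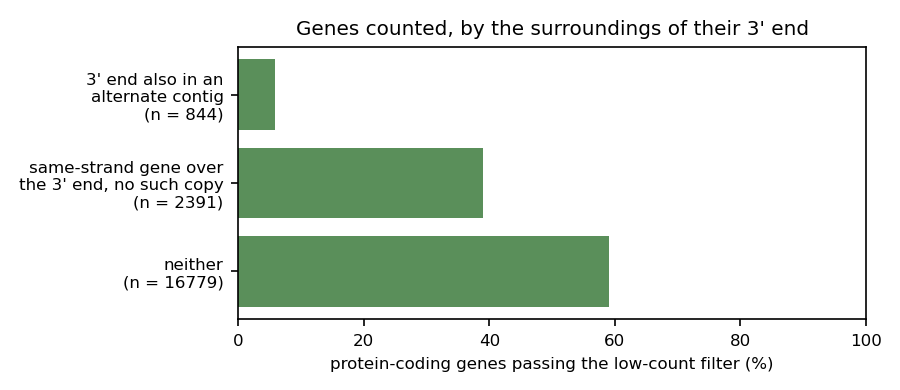
Share of protein-coding genes that passed the low-count filter (x axis, percent) by what surrounds their 3' end (bars; n is the number of genes). Genes whose 3' end recurs in an alternate contig of the reference searched here, as that of APOM does, passed in 5.81% of cases. Of genes with neither feature, the class of APOB, 59.1% passed.

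Other genes of lipoprotein biology were near zero too. Among the lists of related genes, APOC4, which lies beside APOE and APOC1, SAA1 and CIDEB, a lipid droplet protein that lipidates very-low-density lipoprotein, had 0 counts in all libraries, as did CES1 (3' end in 1 alternate contig) and AGPAT1 (3' end in 6). DGAT1, an enzyme of triglyceride synthesis, had 10 counts in all 8 libraries and SURF4, the cargo receptor that exports apoB, had 44. Nothing can be said here about NAT10 depletion and these genes.

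The libraries held 9731718 to 27977110 counts and 13840 genes were tested, with batch in the model. NAT10 stood at 31.6% of its siCtrl level in siNAT10 (edgeR adjusted p = 2.0e-05). At an adjusted p under 0.05, 2.28% of all tested genes were called, 1.46% as lower and 0.816% as higher in siNAT10. With scaling by library size alone the split was 138 higher and 149 lower, against 113 and 202. The hepatocyte markers (ALB, AFP, TTR, SERPINA1, TF, FGB, HNF4A) were all counted and together reached 8446 to 9166 CPM in siCtrl and 6759 to 7261 CPM in siNAT10, so that this sum did not overlap between the groups. ALB (600489 counts over all libraries), TF (269940) and AFP (234103) gave most of the sum, whereas SERPINA1 had 645. Taken singly, 3 of the 7 markers were lower without overlap, against 3.15% of tested genes. Of these 7 markers, 5 were fitted lower and 2 higher (FGB and HNF4A), edgeR called 1, TF, as lower, and DESeq2 called ALB as well as TF. For markers of other cells, the summed level was 0.58 to 1.38 and 0.29 to 1.25 CPM (siCtrl, siNAT10) for fibroblasts, with COL1A2, COL3A1 and DCN at 0, and 0.23 to 0.80 and 0 to 0.28 CPM for endothelium, with KDR at 0. The leukocyte list was at 2.24 to 3.90 and 1.65 to 3.37 CPM, with PTPRC and CD3E at 0, and the enterocyte list at 164 to 215 and 149 to 193 CPM, above the level of MTTP, with SI at 0 and most of the sum in VIL1 (a mean of 166 CPM). The part of the hepatocyte sum in the members' results was not tested.

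Of the 7 members tested, APOA2 and MTTP were called, both lower in siNAT10, and 0 were called higher. All 7 fitted changes were below 0, from -0.55 to -0.0083 on the log2 scale, with a median of -0.29, against a median of -0.0024 and 50.3% below 0 over all genes tested. The 2 called members were also the members whose 4 siNAT10 libraries all lay below all 4 siCtrl libraries, a pattern that 3.15% of tested genes showed. It was not particular to the members: 3 of 15 other apolipoproteins, 8 of 22 other secreted hepatocyte proteins and 3 of 7 hepatocyte markers showed it. Some markers are also among those secreted proteins. Of the remaining lists, it held for 1 of 25 apoB assembly and export genes and 1 of 23 lipid supply genes. For HDL formation and remodelling it was 1 of 17, and for the regulators 0 of 27. In bulk RNA, fewer cells making a transcript and less of it per cell cannot be told apart. The median stayed below 0 in each of 18 alternative analyses, from -0.38 in batch 2 alone to -0.19 without siCtrl replicate 3.

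**Figure D2:**
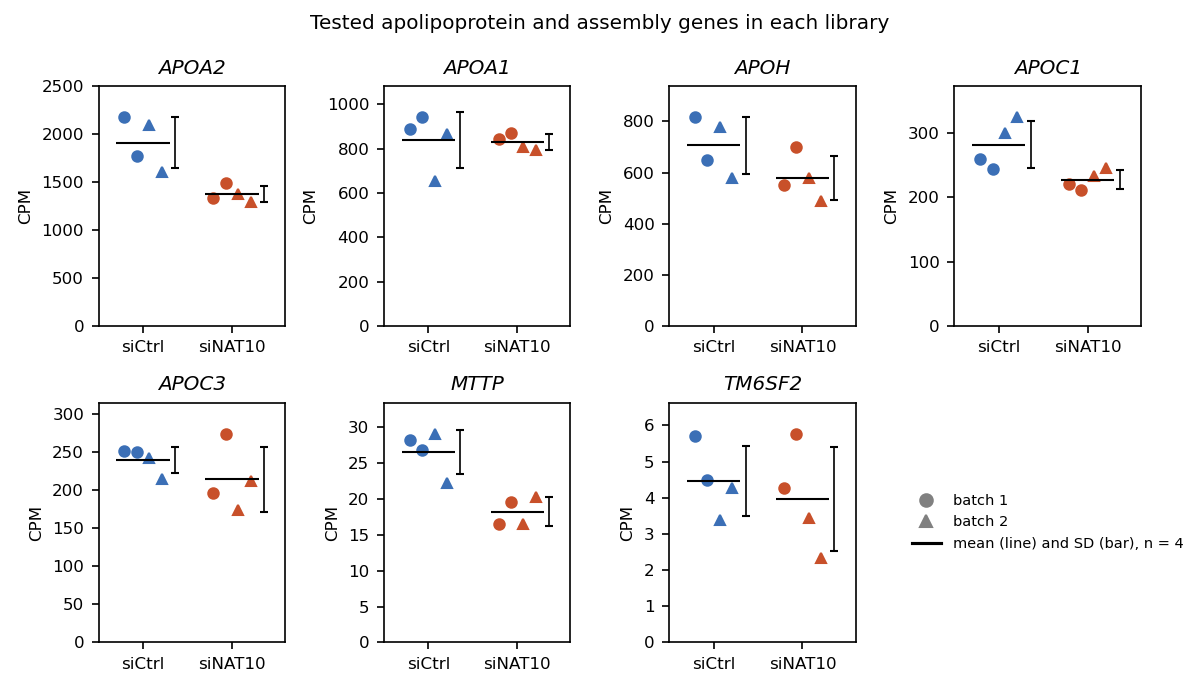
CPM (y axes, each from 0) of the 7 tested members in each library of siCtrl and siNAT10; circles are batch 1, triangles batch 2, lines the mean and bars the SD of 4 libraries. For APOA2 and MTTP every siNAT10 library lies below every siCtrl library, whereas for APOA1 the siNAT10 libraries (796 to 872 CPM) lie within the siCtrl range (653 to 941 CPM).

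Among the HDL proteins, APOA2 (ENSG00000158874, chromosome 1, 161222292 to 161223631) had the highest counted level of all members. It stood at 2178, 1778, 2099 and 1602 CPM in siCtrl replicates 1 to 4 and at 1339, 1492, 1373 and 1295 CPM in siNAT10 replicates 1 to 4. The highest siNAT10 library, replicate 2, lay below the lowest siCtrl library, replicate 4, and the siCtrl libraries spread more widely. The group means were 1914 ± 271 and 1375 ± 84.5 CPM (SD, n = 4), a log2 change of -0.48 (SE 0.12, 95% interval -0.72 to -0.23, edgeR adjusted p = 0.0396), or 71.8% of the siCtrl level. The change was -0.48 in batch 1 and -0.47 in batch 2, and each siNAT10 library lay below both siCtrl libraries of its batch. With 13241 to 59918 counts per library, counting error was small beside the spread between libraries.

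The APOA2 call lay close to the threshold. It held without siCtrl replicate 4 (edgeR adjusted p = 0.037), and leaving out any of the other 7 libraries gave 0.055 to 0.15; it was also lost without the batch term (0.28) and in either batch alone (0.17 and 0.66), within a range of 6.7e-04 to 0.66 over 18 alternatives, whose log2 changes all lay between -0.55 and -0.39.

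APOA1 (ENSG00000118137, chromosome 11, 116835751 to 116837622), the main HDL protein and the activator of LCAT, stood at 889, 941, 653 and 863 CPM in siCtrl and at 841, 872, 805 and 796 CPM in siNAT10. The groups overlapped, and siCtrl replicate 3 was the lowest of all 8 libraries. The means were 837 ± 127 and 829 ± 35.1 CPM (SD, n = 4), a log2 change of -0.0083 (SE 0.11, 95% interval -0.24 to 0.22, edgeR adjusted p = 0.99). The sign of this value is not fixed: it was above 0 with library-size scaling and in batch 2 alone. The interval excludes a change as large as that fitted for APOA2, though not one between -0.24 and 0.22.

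**Figure D3:**
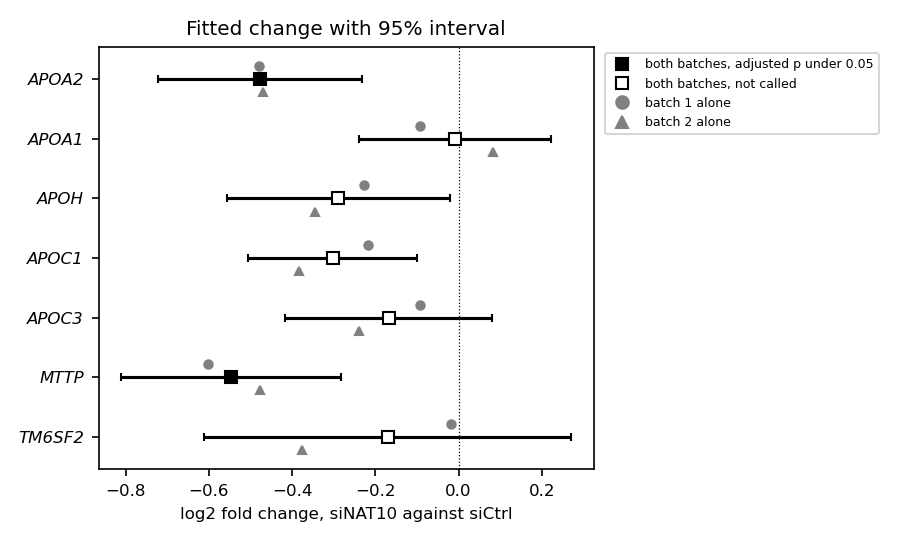
Fitted log2 fold change of siNAT10 against siCtrl (x axis) for the 7 tested members; squares with bars are the fit over both batches with its 95% interval, filled where the adjusted p is under 0.05, and grey circles and triangles are the fits in batch 1 and batch 2 alone. APOA2 (-0.48) and MTTP (-0.55) are the filled squares, and APOA1 (-0.0083) sits at 0.

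APOC1 (ENSG00000130208, chromosome 19, 44914247 to 44919349), which inhibits the lipid transfer protein CETP, stood at 258, 244, 300.3 and 324 CPM in siCtrl and at 219.7, 212, 233 and 245 CPM in siNAT10. Each siNAT10 library lay below both siCtrl libraries of its batch, but the groups overlapped across batches, where siNAT10 replicate 4 lay just above siCtrl replicate 2. The log2 change was -0.30 (SE 0.10, 95% interval -0.50 to -0.10) and did not pass adjustment over all genes (edgeR adjusted p = 0.11). DESeq2 called it (adjusted p = 0.039); over the 18 alternatives the adjusted p ran from 0.039 to 0.67.

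APOC3 (ENSG00000110245, chromosome 11, 116829706 to 116833072), an inhibitor of lipoprotein lipase, stood at 252, 251, 242 and 214.5 CPM in siCtrl and at 196, 274, 174.5 and 211.5 CPM in siNAT10. The highest and the lowest library were both siNAT10 libraries, replicates 2 and 3. The log2 change was -0.17 (SE 0.12, 95% interval -0.42 to 0.08, edgeR adjusted p = 0.53). APOC3 and APOA1 are neighbours in one gene cluster on chromosome 11 with APOA4 and APOA5, which had log2 changes of -0.32 (adjusted p = 0.31) and -0.10 (0.70) in the edgeR fit. None of the 4 genes of that cluster was called.

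APOH (ENSG00000091583, chromosome 17, 66212033 to 66256525), a plasma glycoprotein that binds anionic phospholipids, stood at 816, 649, 778 and 580.1 CPM in siCtrl and at 551, 698, 578 and 490 CPM in siNAT10. The groups overlapped, since siNAT10 replicate 2 lay above siCtrl replicates 2 and 4. The means were 706 ± 110.0 and 579 ± 87.4 CPM (SD, n = 4). The log2 change of -0.29 (SE 0.13, 95% interval -0.56 to -0.02) did not pass adjustment (edgeR adjusted p = 0.27).

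Of the lipid-loading proteins, MTTP (ENSG00000138823, chromosome 4, 99564081 to 99623997) stood at 28.2, 26.9, 29.1 and 22.2 CPM in siCtrl and at 16.5, 19.6, 16.5 and 20.3 CPM in siNAT10. The groups did not overlap, and the nearest pair was the replicate 4 libraries of the 2 groups. The means were 26.6 ± 3.07 and 18.2 ± 2.00 CPM (SD, n = 4), a log2 change of -0.55 (SE 0.12, 95% interval -0.81 to -0.28, edgeR adjusted p = 0.0298), or 68.4% of the siCtrl level. It was -0.60 in batch 1 and -0.48 in batch 2, from 208 to 775 counts per library.

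The MTTP call was also close to the threshold. It held without siCtrl replicate 4 (edgeR adjusted p = 0.026) and without siNAT10 replicate 4 (0.019), and leaving out any of the other 6 libraries gave 0.083 to 0.12; it was lost without the batch term (0.27), with library-size scaling (0.060) and in either batch alone (0.054 and 0.70), within a range of 0.0044 to 0.70 over 18 alternatives, whose log2 changes lay between -0.63 and -0.47.

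TM6SF2 (ENSG00000213996, chromosome 19, 19264364 to 19273391) was the lowest tested member, at 5.71, 4.49, 3.37 and 4.26 CPM in siCtrl and 4.27, 5.77, 3.45 and 2.35 CPM in siNAT10. The groups overlapped over nearly their whole range. It was the only tested member with an annotated gene of the same strand over its 3' end (ENSG00000267629, 0 counts), and the part of that overlap in its level was not tested. With 24 to 166 counts per library the log2 change of -0.17 had a wide 95% interval, -0.61 to 0.27 (SE 0.21, edgeR adjusted p = 0.755). A change of the size fitted for MTTP therefore lies inside the interval of TM6SF2.

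In order of mean counted level over the 8 libraries, APOA2 stood first, then APOA1 and APOH, then APOC1 and APOC3, then MTTP and TM6SF2. The ranges over the 8 libraries overlapped between APOA1 and APOH and between APOC1 and APOC3, and between no other neighbours in that order. The members together took 0.445%, 0.390%, 0.389% and 0.356% of all counts in siCtrl and 0.313%, 0.367%, 0.314% and 0.322% in siNAT10, with means of 0.395 ± 0.0368% and 0.329 ± 0.0260% (SD, n = 4). The groups overlapped in this share through siNAT10 replicate 2. The difference was -0.0661 percentage points with APOA2 and -0.0169 without it.

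Counts of APOA2 and MTTP were also set against those of APOA1 within each library, where scaling does not enter. Since the genes were chosen after their values had been seen, these ratios are a description and no test is given. APOA2 had 2.45, 1.89, 3.21 and 1.86 counts per APOA1 count in siCtrl replicates 1 to 4 and 1.59, 1.71, 1.70 and 1.63 in siNAT10. All siNAT10 ratios lay below all siCtrl ratios and spread little, and siCtrl replicate 3, in which APOA1 was low, had the highest. The mean log2 ratio differed by -0.47, and by -0.30 without siCtrl replicate 3.

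MTTP had 31.7, 28.5, 44.6 and 25.7 counts per 1000 APOA1 counts in siCtrl and 19.6, 22.4, 20.5 and 25.6 in siNAT10. The groups were separated by a narrow gap between the replicate 4 libraries. The mean log2 ratio differed by -0.54, and by -0.38 without siCtrl replicate 3.

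**Figure D4:**
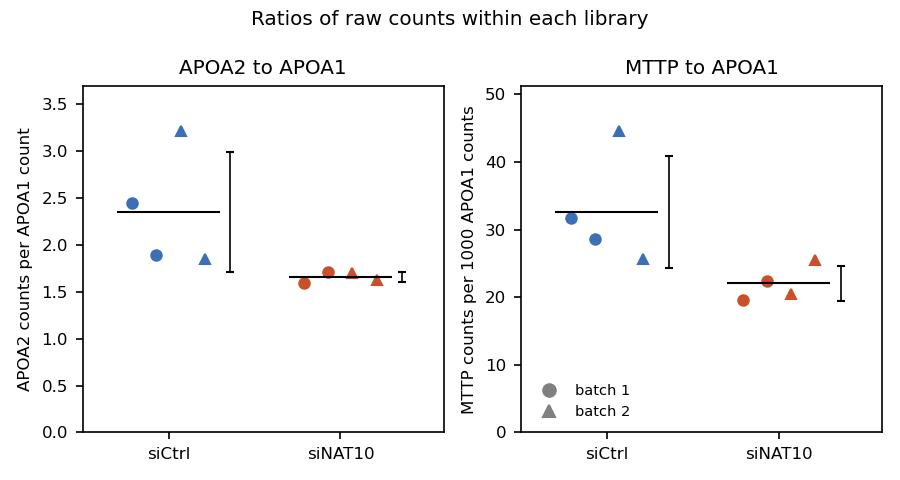
Raw counts of APOA2 per APOA1 count (left) and of MTTP per 1000 APOA1 counts (right) in each library; circles are batch 1, triangles batch 2, lines the mean and bars the SD of 4 libraries. The siNAT10 ratios of APOA2 lie between 1.59 and 1.71, below the lowest siCtrl ratio of 1.86, and those of MTTP reach 25.6 against a lowest siCtrl value of 25.7.

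The batches were compared in the same fit, where 25.3% of all tested genes were called. Of the 7 members, 1 was called: TM6SF2 was lower in batch 2 by a log2 change of -0.60 (SE 0.21, edgeR adjusted p = 0.046). This call held without siCtrl replicate 2 or without siCtrl replicate 4, and was lost when any of the other 6 libraries was left out (0.053 to 0.17) and after thinning to the smallest library (0.070). The other members had batch changes of -0.21 (APOC3) to 0.23 (APOC1). The APOA2 and MTTP values were -0.09 and -0.04, smaller than their siRNA changes. An interaction of batch and siRNA was fitted to ask whether the siRNA effect differed between batches. For the members its log2 value ran from -0.35 (TM6SF2) to 0.17 (APOA1), and 0 of them were called, with 0 at an unadjusted p under 0.05. The SE of the interaction ran from 0.20 (APOC1) to 0.43 (TM6SF2) and was 0.24 for APOA2. With 2 libraries per group and batch, the absence of a call does not show that the batches responded alike. Over all genes edgeR called 0 and had 421 at an unadjusted p under 0.05, and DESeq2 called 1.

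The other 15 tested of 20 apolipoproteins and HDL-bound proteins had a median log2 change of -0.19, with 13 fitted below 0, 1 called lower and 0 called higher. The called gene was APOF, a plasma inhibitor of lipid transfer: it stood at 21.9, 25.1, 19.9 and 21.8 CPM in siCtrl and at 16.5, 15.3, 15.7 and 15.0 CPM in siNAT10, with no overlap. Its log2 change was -0.51 (SE 0.11, edgeR adjusted p = 0.028), and the call held in 2 of the 8 fits that left out a library, those lacking siCtrl replicate 3 or siNAT10 replicate 4, with an adjusted p of up to 0.12 in the rest. APOL1 had -0.35 (0.10) and APOOL, a mitochondrial protein of the family by name, 0.15 (0.61), log2 changes with adjusted p in the same fit. SAA4, whose mean of 6.61 CPM lay below the limit for naming, had the lowest fitted change of the list, -0.61 (SE 0.16, edgeR adjusted p = 0.055). Its groups did not overlap, and DESeq2 called it as well as APOF. SAA4 was chosen for naming after its value had been seen.

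Genes that fold, load or export apoB particles did not share a direction, with 14 of 25 fitted above 0 and a median of 0.0056, whose sign changed in 2 of 18 alternatives. Of the 25, 1 was called lower and 0 higher. It was PRAP1, a secreted proline-rich protein reported to bind lipid and to promote lipid transfer by MTTP. PRAP1 stood at 7.78, 6.27, 7.12 and 6.14 CPM in siCtrl and at 2.08, 3.41, 2.51 and 2.93 CPM in siNAT10. The siNAT10 libraries thus lay well below all siCtrl libraries, and the log2 change of -1.32 (SE 0.20, edgeR adjusted p = 0.0027) was called in all 8 fits that left out a library, though from only 30 to 214 counts. In batch 2 alone PRAP1 was not called (edgeR adjusted p = 0.34). Of the others named by size, PDIA3, a disulfide isomerase, had -0.39 (adjusted p = 0.17; 0.019 without siNAT10 replicate 4, within 0.019 to 0.87 over 18 alternatives). SAR1A, a GTPase of the COPII coat, had -0.15 (0.52), SEC24A, a coat subunit, 0.32 (0.19) and MIA3, an export receptor for large cargo, 0.39 (0.10).

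**Figure D5:**
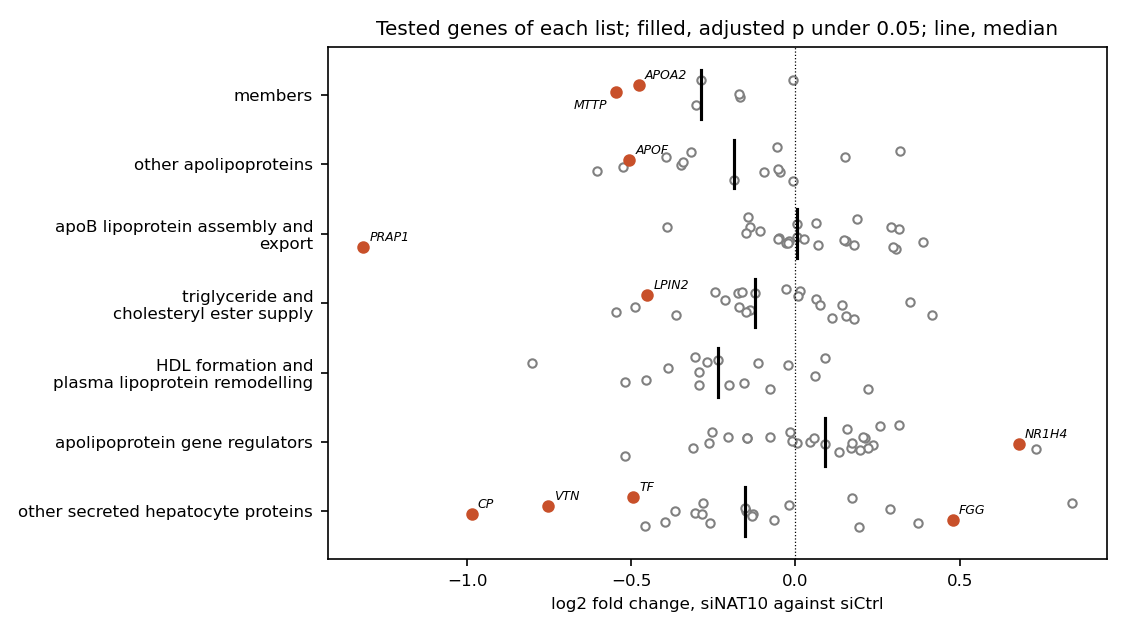
Fitted log2 fold change of siNAT10 against siCtrl (x axis) for each tested gene of the members and of 6 lists of related genes (rows); filled points have an adjusted p under 0.05 and the vertical line is the list's median. The members' median is -0.29 and that of the genes that assemble and export apoB particles 0.0056, and PRAP1 at -1.32 is the lowest of all points.

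Among 23 tested genes of triglyceride and cholesteryl ester supply, 1 was called lower, 0 were called higher and the median was -0.12, which rose above 0 in batch 1 alone (0.04). The called gene was LPIN2, a phosphatidate phosphatase, with a log2 change of -0.45 (edgeR adjusted p = 0.035); of the 8 fits that left out a library the call held in 1, that lacking siCtrl replicate 3, with an adjusted p of up to 0.13 in the rest. EMILIN2 lies over its 3' end on the other strand (2804 counts), and no source says whether the counting used strand. SOAT1, which esterifies cholesterol, had -0.37 (0.099), GPAM, the first enzyme of glycerolipid synthesis, 0.35 (0.12) and ACSL4, an acyl-CoA synthetase, 0.18 (0.49).

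For HDL formation and the remodelling of lipoproteins in plasma, edgeR called 0 of 17 tested genes, with 5 at an unadjusted p under 0.05, and DESeq2 called 1 (NPC2). Over all 13840 tested genes, 2173 had an unadjusted p under 0.05 in the edgeR fit and DESeq2 called 601. Of the 17, 14 were fitted below 0 and the median was -0.24 (-0.07 in batch 1 and -0.36 in batch 2). CETP, which exchanges lipid between particles, had a log2 change of -0.52 (edgeR adjusted p = 0.11), and SCARB1, the HDL receptor, -0.31 (0.20). LCAT, the cholesterol-esterifying enzyme that apoA-I activates, had 0.22 (0.42) and ABCA1, which loads cholesterol onto apoA-I, 0.06 (0.88), a value that fell below 0 in batch 1 alone.

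Known regulators of apolipoprotein genes had a median of 0.09 over 27 tested genes, with 1 called higher and 0 called lower. It was NR1H4, the bile acid receptor FXR, at 15.7, 15.4, 10.2 and 10.8 CPM in siCtrl and 22.5, 24.99, 20.2 and 15.1 CPM in siNAT10. The groups overlapped across batches, but each siNAT10 library lay above both siCtrl libraries of its batch, with a log2 change of 0.68 (SE 0.12, edgeR adjusted p = 0.011). The call held in 14 of 18 alternatives and was lost without siNAT10 replicate 2 (adjusted p = 0.057), without the batch term (0.34), in batch 1 alone (0.054) and in batch 2 alone (0.48), within a range of 1.7e-04 to 0.48. HNF4A, a principal activator of these genes, had 0.09 (adjusted p = 0.74), FOXA2 -0.31 (0.15), NR0B2 -0.26 (0.18) and PPARA 0.31 (0.19). HNF4A was chosen for naming after its value had been seen.

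Other proteins that hepatocytes secrete were examined beside the apolipoproteins. Of 22 tested, 3 were called lower (CP, VTN and TF) and 1 higher (FGG), and the median of -0.15 was nearer 0 than that of the members, a difference that was not tested. Of the 22, 16 were fitted below 0 and 6 above. In the edgeR fit 11 of the 22 had an unadjusted p under 0.05, as did 4 of the 7 members and 2173 of all 13840 tested genes. DESeq2 called 6 of the 22 (AHSG, ALB, CP, FGG, TF and VTN) and 3 of the 7 members, against 601 of the 13840. The log2 changes were -0.99 for CP, the copper-carrying ceruloplasmin (edgeR adjusted p = 5.7e-04), -0.75 for VTN, vitronectin (0.0036), -0.49 for TF, the iron carrier transferrin (0.023), and 0.48 for FGG, a fibrinogen chain (0.020). FGB, another fibrinogen chain, had 0.37 (0.17). SRPRB overlaps the 3' end of TF on the same strand, with 13598 counts, and HPS3 that of CP on the other strand, with 1423. CP and VTN were called in all 8 fits that left out a library, TF in 3 of 8 (adjusted p up to 0.091) and FGG in 2 of 8 (up to 0.081). Over the 18 alternatives CP was called in 17 and VTN in 16, and neither in batch 2 alone (edgeR adjusted p = 0.22 and 0.40).

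To find the genes whose pattern was most like that of a called member, log2 CPM was centred per gene and the root mean square difference over the 8 libraries was taken, among genes with a mean of at least 8 CPM. Against 8666 genes, the nearest to APOA2 was IGBP1 (0.068) and the nearest to MTTP was BMPR2 (0.093). The nearest other member to MTTP was APOA2, at rank 7 (0.12), and the nearest to APOA2 was APOH, at rank 16 (0.12). APOA2 was also the nearest member to APOH, at rank 42. For the remaining members the nearest other member came far later, at rank 622 for APOC3 (APOH), 2581 for APOC1 (APOA2) and 3321 for APOA1 (APOC3). The 8 libraries share their depth, batch and siRNA over all genes, so that these distances describe the libraries only.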

How the data were processed

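Polyadenylated RNA was measured by QuantSeq 3' sequencing in 8 libraries. Per the submitters' processing notes, reads were trimmed with Trim Galore 0.6.10 and cutadapt 3.5, aligned with STAR 2.7.9a to GRCh38 and counted with featureCounts (Subread). The deposited values are whole-number counts per Ensembl gene, not normalized. Which annotation release was used, whether counting was stranded and how reads with several alignments were handled is not given in the sources used here, and the labels name both the forward and the reverse kit. Symbols came from GENCODE 44 (61458 of 86369 identifiers matched; the rest held 1.27 to 1.65% of a library's counts).

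Counts were fitted in R 4.3.3 with edgeR 4.0.16 (filterByExpr at a minimum count of 10, TMM scaling, quasi-likelihood F test, batch and siRNA as terms), with Benjamini-Hochberg adjustment over 13840 genes and a threshold of 0.05. The script was tested on simulated data. CPM are counts per 1000000 of the TMM-scaled library size, and the SE was taken from the F statistic. Ends of transcripts were matched with minimap2 2.31. A result on 1 gene of the lists is not reported here. The members and lists were chosen with earlier results of these data known. Named genes are the members, every called gene of a list and the 2 largest fitted changes per direction with a mean of at least 8 CPM.

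Same-numbered libraries deviated together from their group means across genes, with correlations of 0.39, 0.38, 0.45 and 0.36, but they also share a batch. After removal of the batch means the correlations were -0.06 (replicates 1 and 2) and 0.17 (replicates 3 and 4). With 2 libraries per group and batch, both replicates of a batch must give the same value. These values cannot decide whether same-numbered libraries were paired. The main fit did not pair samples by number, and pairing enters only in the replicate block below. Alternatives were no batch term, a replicate block, DESeq2 1.42.0, library size alone, RLE size factors, no low-count filter, a mean of at least 10 counts, thinning to the smallest library, each batch alone and each library left out.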

Additional observations from a re-analysis of the deposited data

Results flagged for a closer look

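The summed share of the 10 members stood apart in 1 siNAT10 library. Replicate 2 had 0.367% of its counts in the members, against 0.313 to 0.322% in the other 3 siNAT10 libraries, and its gap to the nearest was 0.838 of the group's whole range. APOA2 made up 0.153% of its counts, against 0.132 to 0.136% in the others. Of the siNAT10 libraries it had the highest level of APOA2 (1492 CPM), APOA1 (872 CPM), APOH (698 CPM), APOC3 (274 CPM) and TM6SF2 (5.77 CPM), though not of APOC1 or MTTP. It was 1 of 22 groups of 4 libraries examined, of which chance alone would be expected to put about 1.1 past the limit (1 in 20).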

How the results depend on the processing

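The 7 tested members kept the sign of their change in all alternatives except APOA1, whose log2 change was 0.00032 with DESeq2, 0.00031 with RLE size factors, 0.031 with library size alone, 0.082 in batch 2 alone and -0.093 to 0.057 with a library left out. ABCA1 was at -0.011 in batch 1 alone and -0.071 to 0.16 with a library left out. Of 594 gene values under the alternatives, 514 kept direction and side of the threshold, 67 were no longer called, 3 became called and 10 changed sign. Of the 7 tested members, 2 were called in the main fit. Without the batch term 0 of the 7 were called (3 at an unadjusted p under 0.05), in batch 1 alone 0 (2) and in batch 2 alone 0 (3). Over all genes tested in those fits, 1106 of 13840, 1916 of 14521 and 946 of 13433 had an unadjusted p under 0.05. With library size alone 1 member was called, and with a library left out 0 to 2. All of these were edgeR fits, with fewer samples in the fits of a batch alone or with a library left out. The paired fit, with a replicate block, called the same number of members, 2, and changed no member's call. Over all genes the count of 315 became 15 without the batch term, 601 with DESeq2, 595 with no filter, 454 with the replicate block, 173 in batch 1 alone, 0 in batch 2 alone (946 at an unadjusted p under 0.05) and 75 to 286 with a library left out. For the batch comparison, the count of 1 (TM6SF2) became 2 with DESeq2, 0 after thinning and 0 to 1 with a library left out. The interaction had 1 gene with DESeq2, 15 with no filter and 0 to 2 with a library left out. With no filter, 1 member (APOM, at 0 throughout) was left out as near zero in place of 3. The difference in summed share was -0.0169 percentage points without APOA2. Depth limits TM6SF2 and PRAP1, with counts down to 24 and 30 in a library.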
